A study of Danio rerio with 12 samples.

Results

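The glucocorticoid receptor (Gr) mutation was examined in white muscle of exercised zebrafish, by setting 3 libraries of exercised Gr mutants against 3 libraries of exercised wild-type fish. These are 6 of the 12 libraries of the series. Of the 31962 genes counted, 14106 reached 10 counts in 3 or more libraries of this comparison and were tested. The remaining 17856 genes were not tested. All fish were zebrafish (Danio rerio), and the tissue was the dorsal white muscle fillet taken along the length of the body. The Gr mutants were of the gr s357 line, in which a single-base change alters the part of the receptor that contacts DNA. The receptor gene is nr3c1 (ENSDARG00000025032). The wild-type fish were 3 months old at the start. Exercised fish of both genotypes had swum against 0.4 m/s daily for 6 h, during 5 days of each of 4 weeks, in 1 tunnel. Non-exercised Gr mutants and non-exercised wild-type fish, with 3 libraries each, were kept at 0.1 m/s in another tunnel for the same time and serve here for comparison. Genotypes were assigned after the experiment, according to the methods of the study. The mutation is present in every cell of the fish, so effects of the receptor in muscle and effects of its loss in other organs cannot be told apart. The mutant line came from another laboratory and the wild-type fish from the Leiden facility, and they are not stated to be siblings. The paper also reports that the mutants were bigger than wild-type fish. Line background and body size therefore cannot be told apart from the mutation. According to the methods, RNA came from 3 fish per group, while the labels give neither the sex of the fish nor the fish behind each library. All fish of a condition shared a tunnel, and the p-values measure the spread between these libraries.

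Gr is a nuclear receptor that binds cortisol, the stress steroid of fish, and then acts on DNA as a transcription factor. In muscle it is known for raising genes of its own feedback and of fuel use, such as fkbp5, klf9, tsc22d3 and pdk4, and for favouring the breakdown of protein and the release of amino acids when cortisol is high. White muscle of fish is fast, glycolytic muscle with few mitochondria, and swimming exercise of long duration is known to make muscle more oxidative.

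Counts on genes were 12315951, 7688323 and 8606580 in exercised Gr mutant replicates 1, 2 and 3, against 12936797, 12038120 and 12125487 in exercised wild-type replicates 1, 2 and 3. Levels are given as CPM, counts relative to the TMM-scaled library size. The labelled tissue was borne out by its markers, since the 26 genes of fast white muscle summed to between 356800 and 494500 CPM in Gr mutants and to between 225000 and 366100 CPM in wild-type fish, and 17 of the 24 tested were higher in mutants (1 past the threshold, with 2 lower past it). Some libraries stood apart. Genes of oocytes summed to 378.6 CPM in Gr mutant replicate 3, against 3.22 and 1.48 CPM in the other mutants and 1.28 to 1.91 CPM in wild-type fish, and none of the 28 genes of that list was among the genes tested. Genes of intestine and exocrine pancreas summed to 96.5, 37.9 and 483.7 CPM in Gr mutants, against 18.7 to 25.2 CPM in wild-type fish, with 0 of 10 tested genes past the threshold. Erythrocyte genes summed to 580.8, 556.7 and 539.7 CPM in Gr mutants, against 768.1, 3567 and 401.1 CPM in wild-type fish, so that wild-type replicate 2 stood apart, and 17 of the 18 tested had a log2 fold change below 0 with 1 past the threshold. The share of counts on the 13 genes of the mitochondrial genome was 4.59, 1.97 and 2.02% in Gr mutants and 12.8, 9.66 and 11.52% in wild-type fish. The part of these features in the results below was not tested, except that the values with each library left out are given. The first principal component of the 6 libraries held 41.8% of the variance and placed the mutants between -46.0 and -28.8 and the wild-type fish between 20.4 and 59.6.

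The transcript of the receptor itself overlapped between the genotypes. Expression of nr3c1 was 61.2, 46.5 and 66.7 CPM in exercised Gr mutants, against 45.9, 59.8 and 50.6 CPM in exercised wild-type fish. The log2 fold change was 0.13 (SE 0.21, adjusted p = 0.792, edgeR). A point mutation does not have to alter the amount of its transcript, so this level is no check of the genotype labels.

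In exercised fish 426 genes passed the threshold, an adjusted p under 0.05 (edgeR, quasi-likelihood F test, p-values adjusted after Benjamini and Hochberg). This is 3.02% of the genes tested. Of these, 334 were lower (2.37% of genes tested) and 92 were higher (0.652%) in Gr mutants. The lower genes had a median log2 fold change of -1.59 and the higher genes of 1.66, against a median of -0.01 over all genes tested. In all 426 genes the 3 mutant values lay outside the range of the 3 wild-type values, and this was so for 25.3% of all genes tested (12.8% with all mutants below and 12.5% with all mutants above). An unadjusted p under 0.05 was found for 2746 genes. In RNA of whole tissue, fewer cells of a type and less RNA per cell cannot be told apart, here and in all results that follow. The number of calls depended on single libraries: it was 190, 6 and 26 without Gr mutant replicates 1, 2 and 3, and 172, 69 and 508 without wild-type replicates 1, 2 and 3. In these fits the 426 genes, as far as they could be fitted, all had the same sign and an unadjusted p of at most 0.00998. The sign was all but fixed, since the genotypes did not overlap in any of these genes. They were also chosen by p in the same libraries, so these values are no independent support. In 409 of the 426 the largest and smallest log2 fold changes over the omissions differed by at most 1.5 times, and 4 genes passed the adjusted threshold in every omission: gadd45ba, socs3a, SOCS3 (3 of 3) and GSTK1 (3 of 4). Wild-type replicate 3 was the lowest of the wild-type libraries in 201 of the 334 lower genes (60.2%), against 30.9% of all genes tested.

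Of 34 genes tested that are known to respond to glucocorticoids in vertebrates, 8 fell and 1 rose in exercised Gr mutants. That is 26.5% of the list, against 3.02% of all genes tested. A log2 fold change below 0 was found for 26 of the 34, and the median was -1.27. The lowest relative to wild-type was fkbp5, which codes for a co-chaperone that holds the receptor in a low-affinity state. Expression of fkbp5 (ENSDARG00000028396) was 1.24, 0.660 and 0.554 CPM in exercised Gr mutants, against 484, 759 and 35.4 CPM in exercised wild-type fish. All mutants were far below all wild-type fish, and wild-type replicate 3 was far below the other wild-type libraries. The log2 fold change was -8.95 (SE 1.18, adjusted p = 0.0139, edgeR). The mutant levels of fkbp5 rest on few counts, so the size of its fold is uncertain. The transcription factor klf9 showed the same order of libraries, with 0.660, 0.330 and 0.277 CPM in Gr mutants, against 56.0, 63.1 and 4.05 CPM in wild-type fish. Its log2 fold change was -6.48 (SE 1.08, adjusted p = 0.0232, edgeR). The mutant levels of klf9 stand for 8 counts or fewer per library, so the size of this fold is uncertain. With a library left out, klf9 could be fitted in 3 omissions, with log2 fold changes from -7.05 to -6.25. It passed the threshold in 0 of these 3 fits (highest adjusted p = 0.111, edgeR), so its call depended on single libraries. Expression of tsc22d3, which codes for the anti-inflammatory leucine zipper protein GILZ, was 25.2, 31.8 and 38.8 CPM in Gr mutants, against 230.0, 264 and 142 CPM in wild-type fish. It fell with a log2 fold change of -2.76 (SE 0.30, adjusted p = 0.00945, edgeR), and the lowest wild-type library was again replicate 3.

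The other genes of this list that fell included a kinase, a transcription factor, an enzyme and a signalling suppressor. The kinase that inactivates pyruvate dehydrogenase, pdk4, was at 19.4, 17.3 and 17.6 CPM in Gr mutants, against 85.8, 129.7 and 64.8 CPM in wild-type fish, and the mutant values lay close together (log2 fold change -2.396, SE 0.27, adjusted p = 0.00969, edgeR). Expression of cebpd, a C/EBP transcription factor, was 20.6, 25.2 and 18.4 CPM in Gr mutants, against 177, 255 and 76.6 CPM in wild-type fish (log2 fold change -3.01, SE 0.42, adjusted p = 0.0155, edgeR). Glutamine synthetase, glula, was at 11.1, 6.43 and 4.57 CPM in Gr mutants, against 46.3, 44.4 and 28.8 CPM in wild-type fish (log2 fold change -2.45, SE 0.35, adjusted p = 0.0166, edgeR). In each of these 3 genes the lowest wild-type library was replicate 3, and it was still well above the highest mutant. The cytokine signalling suppressor socs3a was at 2.89, 2.31 and 3.32 CPM in Gr mutants, against 16.6, 17.8 and 20.3 CPM in wild-type fish and kept its call in all 6 omissions (log2 fold change -2.71, SE 0.22, adjusted p = 0.00247, edgeR). Another gene model of the same name, SOCS3 (3 of 3), was nearly parallel, with 3.22, 1.65 and 3.05 CPM in Gr mutants, against 16.8, 16.5 and 18.9 CPM in wild-type fish (log2 fold change -2.73, SE 0.27, adjusted p = 0.00669, edgeR), and reads may be shared between these paralogs. The gene of the list that rose was mstnb, a myostatin, which is described with the regulators of growth.

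Some well known targets of Gr did not pass, nor did another receptor of cortisol. The kinase sgk1 was at 15.3, 19.5 and 22.3 CPM in Gr mutants, against 175, 113 and 14.03 CPM in wild-type fish, so that wild-type replicate 3 lay below all mutants (log2 fold change -2.45, SE 0.73, adjusted p = 0.108, edgeR). The enzyme hsd11b2, which inactivates cortisol, was at 32.6, 13.7 and 9.14 CPM in Gr mutants, against 235, 322 and 31.6 CPM in wild-type fish, and wild-type replicate 3 was again within the mutant range (log2 fold change -3.43, SE 0.81, adjusted p = 0.0597, edgeR). Without wild-type replicate 3 both passed the threshold, with log2 fold changes of -2.96 and -3.93. The period gene per1a was at 1.402, 0.825 and 0.415 CPM in Gr mutants, against 4.39, 2.92 and 1.501 CPM in wild-type fish (log2 fold change -1.70, SE 0.54, adjusted p = 0.128, edgeR). The mineralocorticoid receptor nr3c2, which also binds cortisol, was at 3.63, 4.12 and 4.57 CPM in Gr mutants, against 2.34, 1.75 and 2.55 CPM in wild-type fish (log2 fold change 0.83, SE 0.28, adjusted p = 0.147, edgeR). Over the whole list, 8 genes fell in the fit of all 6 libraries, 13 without wild-type replicate 3, 5 without wild-type replicate 2, 2 without Gr mutant replicate 3 and 1 without Gr mutant replicate 2, with medians between -1.51 and -1.08 in these 4 fits.

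Further genes outside that list fell to a similar degree. Expression of hspb6, a small heat shock protein of muscle, was 8.90, 7.42 and 6.64 CPM in exercised Gr mutants, against 562, 945 and 226 CPM in exercised wild-type fish (log2 fold change -6.26, SE 0.55, adjusted p = 0.00365, edgeR). The stress gene gadd45ba was at 18.4, 15.2 and 18.7 CPM in Gr mutants, against 165, 249.7 and 149.6 CPM in wild-type fish, a difference that passed in every omission (log2 fold change -3.46, SE 0.26, adjusted p = 0.00218, edgeR). The nuclear receptor nr1d2a, a Rev-erb of the clock, was at 14.6, 5.94 and 14.1 CPM in Gr mutants, against 251, 352 and 48.9 CPM in wild-type fish (log2 fold change -4.25, SE 0.71, adjusted p = 0.023, edgeR). The clock output repressor nfil3-6 was at 6.93, 4.29 and 1.38 CPM in Gr mutants, against 54.4, 55.5 and 19.2 CPM in wild-type fish (log2 fold change -3.35, SE 0.58, adjusted p = 0.0264, edgeR). These were the only 2 of 41 core clock genes tested that passed (4.88%, against 3.02% of all genes tested). The median of the clock list was -0.09. Other clock genes, such as per2 and nr1d2b, overlapped between the genotypes, with log2 fold changes of 0.04 and -0.09 (adjusted p = 0.97 and 0.889, edgeR).

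**Figure D1:**
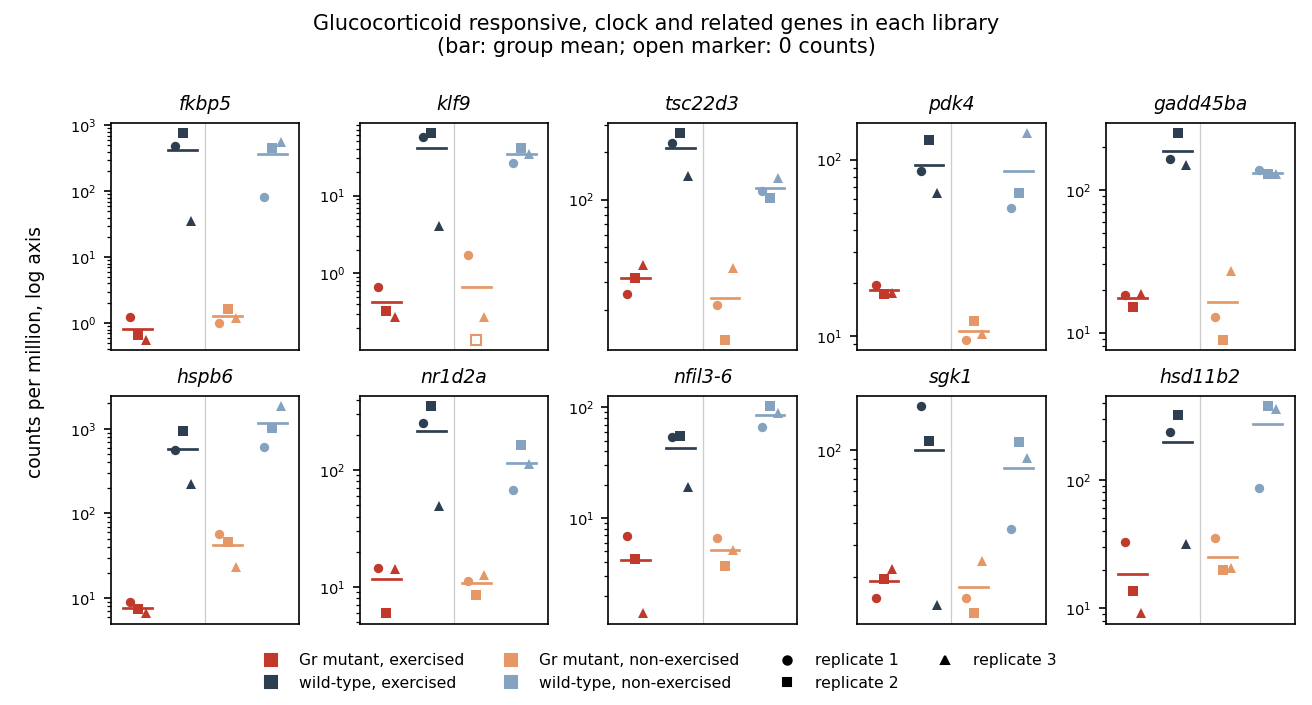
Expression in CPM (log axis) of 10 glucocorticoid responsive, clock and related genes in the 12 libraries, with Gr mutants left of wild-type fish, exercised fish left of the grey line and non-exercised fish right of it; bars are group means and an open marker is a library with 0 counts. All exercised mutants lie below all exercised wild-type fish in 8 of the 10 genes, which passed the threshold. Every gene past it, higher or lower in mutants, had genotypes that did not overlap. The exceptions are sgk1 and hsd11b2, where wild-type replicate 3 lies within or below the mutant range.

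A total of 42 pathway lists held a tested gene, and the median log2 fold change was below 0 in 29 and above 0 in 13 of them. At least 1 gene fell in 29 lists, at least 1 gene rose in 10 lists, and no gene passed in 10 lists. A longer list holds a called gene more easily, and some genes are in more than 1 list, so these counts do not measure how many pathways changed. Over all genes tested, 3.02% passed (2.37% lower and 0.652% higher). The share was 84.6% in genes of the mitochondrial genome, 30.9% in nuclear-encoded respiratory chain genes and 10.4% in mitochondrial ribosomal proteins. It was 23.4% in the fatty acid list, 21.5% in the TCA list, 21.4% in hypoxia genes and 19.7% in glycolysis and glycogen genes.

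**Figure D2:**
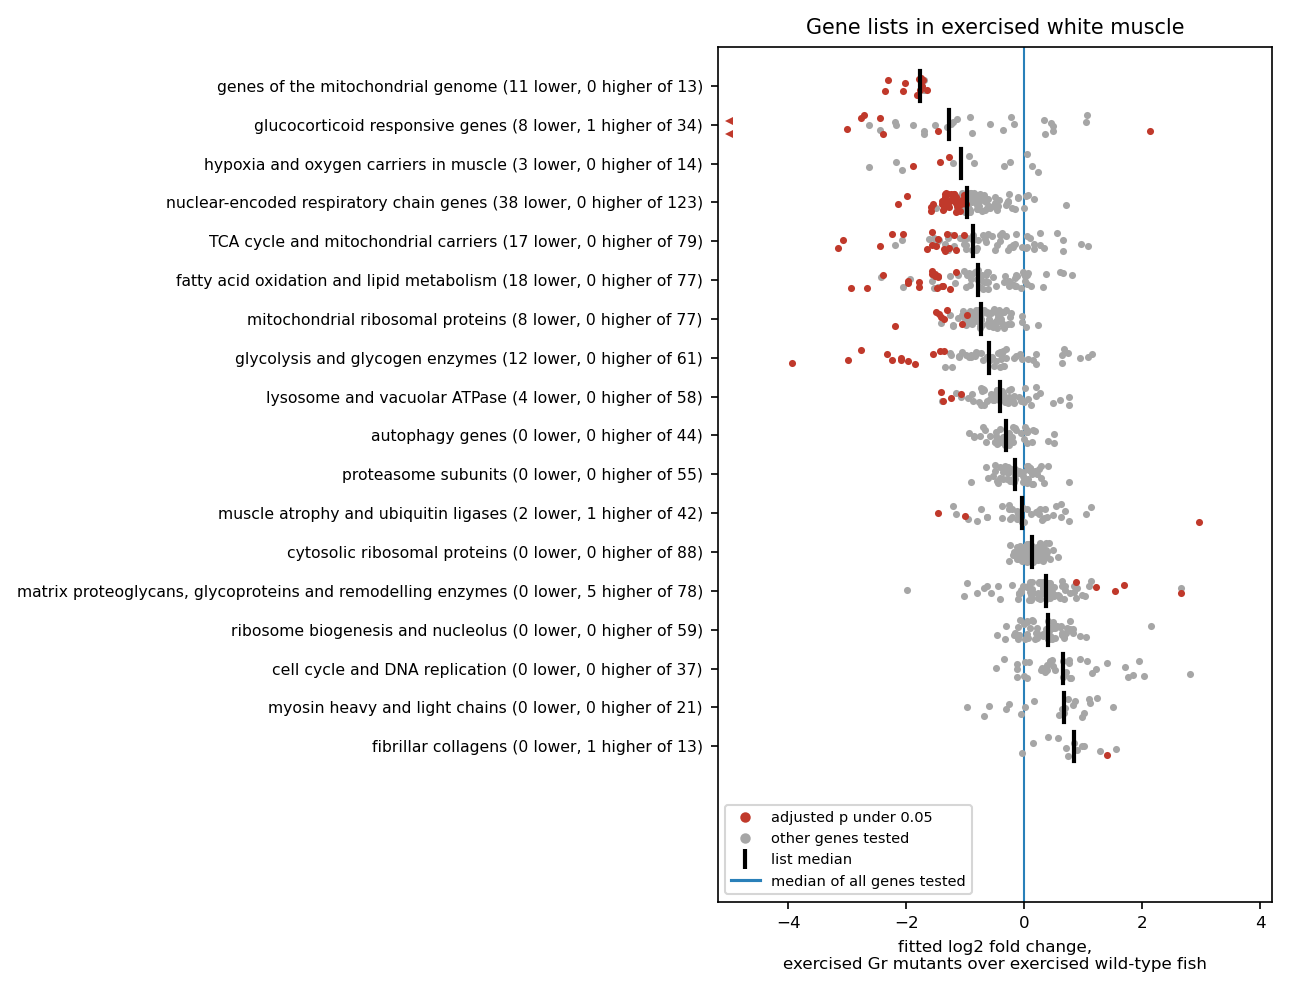
Fitted log2 fold change of each tested gene (points; red, adjusted p under 0.05) in 18 of the pathway lists, exercised Gr mutants over exercised wild-type fish, with list medians as black bars and the median of all genes tested as a blue line; triangles at the left edge are genes below -5. The lists run from genes of the mitochondrial genome, with a median of -1.77, to fibrillar collagens, with a median of 0.84.

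All 13 protein-coding genes of the mitochondrial genome had lower levels in exercised Gr mutants, and 11 of them fell past the threshold. The median log2 fold change was -1.77, with a range of -2.35 to -1.65. Their summed level was 46590, 25030 and 24030 CPM in Gr mutants, against 117400, 113100 and 104800 CPM in wild-type fish, and the groups did not overlap. Cytochrome b, mt-cyb, was at 3747, 1695 and 2135 CPM in Gr mutants, against 13775, 12843 and 11007 CPM in wild-type fish (log2 fold change -2.35, SE 0.35, adjusted p = 0.0179, edgeR). Subunits of cytochrome c oxidase and of NADH dehydrogenase were lower by similar amounts, with log2 fold changes of -2.05 for mt-co2, -1.82 for mt-co3 and -2.02 for mt-nd1. Without Gr mutant replicate 2, Gr mutant replicate 3 or wild-type replicate 2 none of the 13 passed, and the medians were -1.57, -1.61 and -1.753. The 21 marker genes of slow, oxidative muscle summed to 4809, 3919 and 1734 CPM in Gr mutants and to 10780, 1975 and 2517 CPM in wild-type fish, and 0 of the 18 tested passed. Of these 18, 14 had a log2 fold change below 0, against 7139 of all 14106 genes tested, and their median was -0.60. Myoglobin, mb, ran from -2.82 to -1.32 over the omissions of a library, and smyhc1 from -1.37 to 0.56. The part of slow muscle in the mitochondrial result was not tested. The slow myosin smyhc1 was at 215, 203 and 95.4 CPM in Gr mutants, against 727, 101 and 128 CPM in wild-type fish, with overlapping groups.

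The nuclear genes of the respiratory chain moved in the same direction. Of 123 tested, 38 fell, none rose, 119 had a log2 fold change below 0 and in 97 all mutants lay below all wild-type fish, an order that 12.8% of all genes tested had. The median was -0.97. Genes were grouped into complexes by symbol, so the groups also hold some genes that are not structural subunits. Among the falls these include the assembly factor uqcc1 under complex III and the inhibitor atpif1b under complex V, and ndufa4l is counted under complex I. Complex I, NADH dehydrogenase, had 15 falls among 39 genes and a median of -1.08, and its summed level was 2535, 2555 and 1674 CPM in Gr mutants, against 4931, 5197 and 4480 CPM in wild-type fish. Complex II, succinate dehydrogenase, had 2 falls (sdha and sdhdb) among 8 genes and a median of -0.89. Complex III, the cytochrome bc1 complex, had 6 falls among 15 and a median of -1.005. Complex IV, cytochrome c oxidase, had 5 falls among 19 and a median of -1.04, and complex V, the ATP synthase, had 2 falls among 23 and a median of -0.90. In all 5 complexes the summed levels of exercised mutants lay below those of exercised wild-type fish. The mobile electron carrier cytochrome c, cycsb, was at 71.7, 51.9 and 63.7 CPM in Gr mutants, against 242, 276 and 208 CPM in wild-type fish (log2 fold change -1.99, SE 0.22, adjusted p = 0.00954, edgeR). Assembly factors of complex I were among the genes with the smallest p, ndufaf1 with 10.6, 12.7 and 8.58 CPM in Gr mutants, against 29.6, 32.2 and 28.5 CPM in wild-type fish (log2 fold change -1.54, SE 0.21, adjusted p = 0.0142, edgeR) and ndufaf2 with a log2 fold change of -2.14. No gene of the list passed without Gr mutant replicate 2 or 3, where the medians were -1.04 and -0.80, and 26 passed without wild-type replicate 3.

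**Figure D3:**
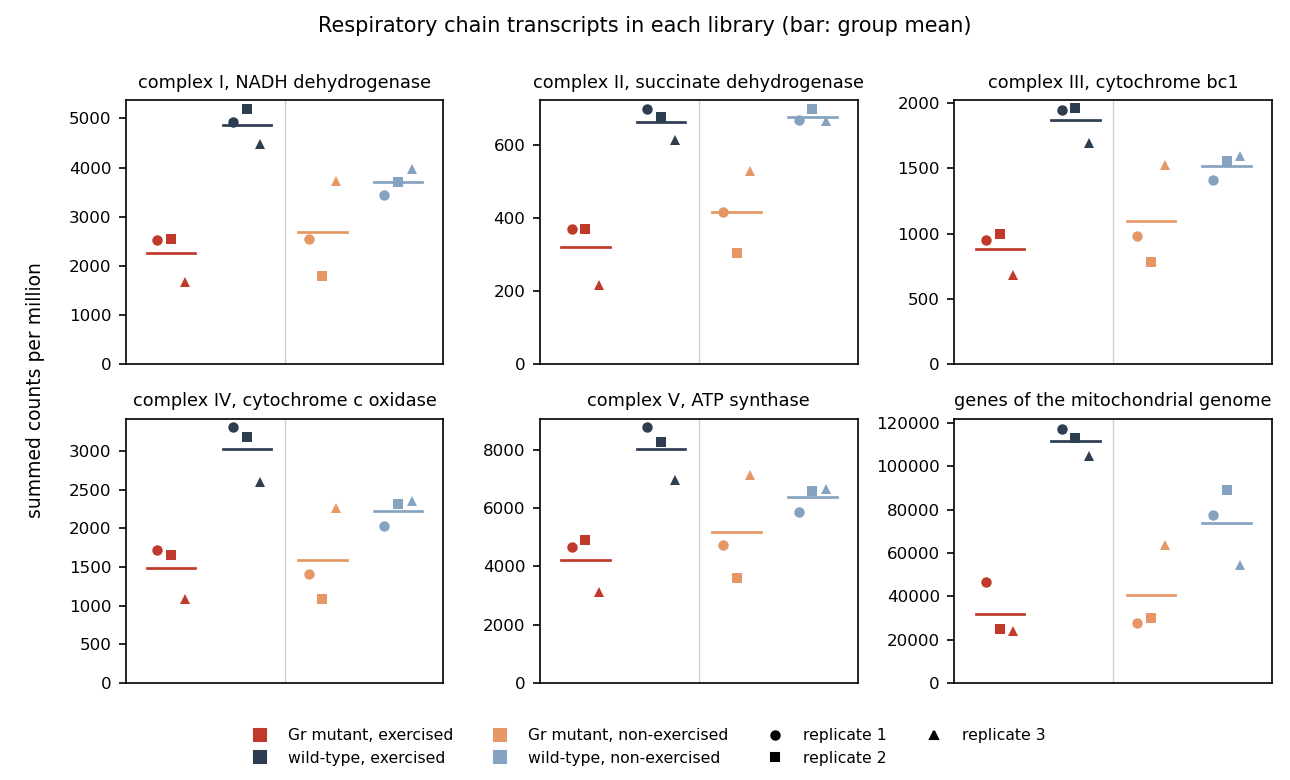
Summed CPM (linear axes from 0) of the nuclear-encoded genes grouped by symbol under complexes I to V and of the 13 genes of the mitochondrial genome in each library, with Gr mutants left of wild-type fish, exercised fish left of the grey line and non-exercised fish right of it; bars are group means. Exercised mutants lie below exercised wild-type fish in all 6 panels, and non-exercised mutants overlap non-exercised wild-type fish in 5 of the 6, the exception being complex II. In those 5 panels non-exercised Gr mutant replicates 1 and 2 lie below all non-exercised wild-type libraries, and replicate 3 does not.

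Of 77 mitochondrial ribosomal proteins, 8 fell and 52 had all mutants below all wild-type fish (12.8% of all genes tested), with a median of -0.73, whereas none of 88 cytosolic ribosomal proteins passed and their median was 0.14. Among the 261 calls in no list, several code for proteins that copy, translate, import or maintain the mitochondrial genome and its products, and these were picked from the calls after their values were seen, with no list or count behind them. The mitochondrial transcription factor tfb2m was at 9.89, 8.58 and 5.95 CPM in Gr mutants, against 30.6, 45.6 and 36.5 CPM in wild-type fish (log2 fold change -2.23, SE 0.25, adjusted p = 0.00954, edgeR). The elongation factor gfm1 had a log2 fold change of -1.300, the translocase subunit timm17a of -2.03 and the matrix protease lonp1 of -1.62. Of the inner membrane proteases and their partners, afg3l2, spg7 and yme1l1b had log2 fold changes of -0.88, -0.99 and -0.90, and the prohibitins phb, phb2a and phb2b of -1.001, -1.28 and -1.53. The fusion protein mfn2 was at 126, 81.5 and 76.5 CPM in Gr mutants, against 226, 241 and 202 CPM in wild-type fish (log2 fold change -1.28, SE 0.25, adjusted p = 0.0361, edgeR), and the mitophagy kinase pink1 was at 32.7, 29.5 and 26.6 CPM in Gr mutants, against 62.4, 74.7 and 56.7 CPM in wild-type fish (log2 fold change -1.16, SE 0.19, adjusted p = 0.0241, edgeR).

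Of 15 genes of the PGC-1 and PPAR list, 2 passed the threshold (13.3%, against 3.02% of all genes tested). They were ppargc1a and ppargc1b, which code for PGC-1 alpha and PGC-1 beta. Expression of ppargc1a was 2.72, 1.65 and 0.969 CPM in exercised Gr mutants, against 24.8, 11.96 and 7.36 CPM in exercised wild-type fish (log2 fold change -3.03, SE 0.54, adjusted p = 0.0281, edgeR). Expression of ppargc1b was 13.1, 10.1 and 11.8 CPM in Gr mutants, against 38.2, 26.6 and 23.9 CPM in wild-type fish (log2 fold change -1.38, SE 0.25, adjusted p = 0.0292, edgeR). In both genes the genotypes did not overlap, and the median of the list was -0.23. With a library left out, ppargc1a passed only without wild-type replicate 1 or 3, and ppargc1b only without wild-type replicate 3. Neither passed in the fit over all 12 libraries.

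Genes of fatty acid use formed the next group. Of 77 tested, 18 fell and none rose, with a median of -0.79, and 66 had a log2 fold change below 0. Acyl-CoA synthetase acsl1b, which activates fatty acids, was at 61.6, 55.9 and 59.5 CPM in Gr mutants, against 201, 203 and 194 CPM in wild-type fish (log2 fold change -1.79, SE 0.19, adjusted p = 0.00807, edgeR). The acyl-CoA dehydrogenase acad9 was at 6.76, 5.77 and 6.51 CPM in Gr mutants, against 27.2, 23.9 and 21.8 CPM in wild-type fish (log2 fold change -1.97, SE 0.20, adjusted p = 0.00693, edgeR), and the thiolase acaa2 was at 26.96, 24.9 and 20.8 CPM in Gr mutants, against 69.6, 66.5 and 58.2 CPM in wild-type fish (log2 fold change -1.46, SE 0.20, adjusted p = 0.0149, edgeR). In these 3 genes the replicates of a genotype lay close together. The carnitine palmitoyltransferases, which carry fatty acids into mitochondria, had log2 fold changes of -1.56 for cpt1ab, -1.25 for cpt1b and -1.51 for cpt2. The uncoupling protein ucp3 was at 37.9, 44.9 and 36.0 CPM in Gr mutants, against 291, 490.4 and 116 CPM in wild-type fish (log2 fold change -2.94, SE 0.47, adjusted p = 0.0206, edgeR). Genes of fat synthesis were in the same list and fell as well, with log2 fold changes of -1.46 for acaca, -1.78 for acacb and -2.66 for dgat1a. In the cholesterol list 1 of 16 fell (6.25%, against 3.02% of all genes tested), hmgcs1 with -1.38.

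Of 79 genes of the TCA cycle and of mitochondrial carriers, 17 fell and none rose, with a median of -0.87. Among them were transaminases, which link amino acids to the cycle. Alanine aminotransferase gpt2 was at 25.2, 17.97 and 16.5 CPM in Gr mutants, against 145, 289.7 and 93.5 CPM in wild-type fish (log2 fold change -3.16, SE 0.42, adjusted p = 0.0139, edgeR), and another gene model, GPT (2 of 2), was at 27.9, 37.6 and 25.2 CPM in Gr mutants, against 106, 196 and 118 CPM in wild-type fish (log2 fold change -2.24, SE 0.29, adjusted p = 0.0138, edgeR). Aspartate aminotransferase got1 was at 117, 100.3 and 60.8 CPM in Gr mutants, against 382, 398 and 351 CPM in wild-type fish (log2 fold change -2.06, SE 0.28, adjusted p = 0.0142, edgeR), and its mitochondrial forms got2a and got2b had log2 fold changes of -1.36 and -1.35. Dehydrogenases fell too, with log2 fold changes of -1.66 for the isocitrate dehydrogenase subunit idh3a and -1.28 for the malate dehydrogenase mdh1ab. Of the respiratory chain, mitochondrial genome, mitochondrial ribosome and TCA lists together, 74 of 292 genes tested fell and 0 rose, which is 22.2% of all genes that fell. Without Gr mutant replicates 2 or 3, none of the TCA list passed (medians -0.93 and -0.78) and 0 and 1 of the fatty acid list did (medians -0.86 and -0.70).

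Genes of glycolysis and glycogen were lower in part. Of 61 tested, 12 fell and none rose, with a median of -0.60, and 6 of the 12 act on glycogen. The debranching enzyme aglb was at 41.8, 32.3 and 22.98 CPM in Gr mutants, against 156, 130.1 and 117 CPM in wild-type fish (log2 fold change -2.09, SE 0.27, adjusted p = 0.0138, edgeR). Subunits of phosphorylase kinase, which starts glycogen breakdown, fell with -1.86 for phkg1a, -2.23 for phkg1b, -1.36 for phkb and -2.33 for PHKA1 (1 of 2). Glycogenin gyg2, the primer of glycogen, was at 0.330, 0.825 and 0.692 CPM in Gr mutants, against 3.26, 4.86 and 3.68 CPM in wild-type fish (log2 fold change -2.77, SE 0.41, adjusted p = 0.0179, edgeR). Its mutant levels rest on few counts, so the size of this fold is uncertain. The regulator of glycolytic flux pfkfb4b was at 3.05, 4.62 and 4.98 CPM in Gr mutants, against 47.8, 126 and 15.5 CPM in wild-type fish (log2 fold change -3.93, SE 0.70, adjusted p = 0.0284, edgeR). All mutants lay below all wild-type fish in these genes. Phosphofructokinase pfkmb had a log2 fold change of -1.97, gapdh of -1.55, lactate dehydrogenase ldha of -1.43 and the lactate exporter slc16a3 of -2.99. The cytosolic creatine kinase ckma was at 19695, 26483 and 18458 CPM in Gr mutants, against 19618, 31824 and 22047 CPM in wild-type fish, with overlapping groups, while the mitochondrial form ckmt2a was at 829, 944 and 584 CPM in Gr mutants, against 2336, 3653 and 2519 CPM in wild-type fish (log2 fold change -1.88, SE 0.28, adjusted p = 0.0184, edgeR). Of 14 hypoxia genes 3 fell, namely epas1b, higd1a and ldha, with a median of -1.07, and hif1al of the HIF alpha family, held in the endothelial list, was at 37.5, 27.5 and 44.98 CPM in Gr mutants, against 410.0, 573 and 87.5 CPM in wild-type fish (log2 fold change -3.31, SE 0.61, adjusted p = 0.031, edgeR). Without Gr mutant replicate 2 or 3 no glycolysis gene passed, and 2 did so without wild-type replicate 2.

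Myosin heavy and light chains had a median log2 fold change of 0.67, and 12 of 21 had all mutants above all wild-type fish, an order that 12.5% of all genes tested had. None of the 21 passed the threshold in edgeR, while 7 were higher past it in DESeq2 and 4 with a replicate block. Over all 14106 genes tested, 296 were higher past it in DESeq2 and 54 with the block. The summed level of the myosin list was 257800, 346100 and 331700 CPM in Gr mutants and 137400, 232400 and 168700 CPM in wild-type fish. The fast heavy chain gene myha was at 28066, 36342 and 41398 CPM in Gr mutants, against 11789, 18556 and 13596 CPM in wild-type fish (log2 fold change 1.24, SE 0.29, adjusted p = 0.0604, edgeR). Of 60 thin filament and sarcomere genes 1 rose and 2 fell (5%, against 3.02% of all genes tested), with a median of 0.12. Alpha-actinin actn3a, a Z-disc protein of fast fibres, was at 6197, 7855 and 7834 CPM in Gr mutants, against 2710.2, 3636 and 3054 CPM in wild-type fish (log2 fold change 1.19, SE 0.24, adjusted p = 0.0427, edgeR). Filamin C, flnca, was at 102, 82.8 and 58.4 CPM in Gr mutants, against 573, 529 and 333 CPM in wild-type fish (log2 fold change -2.598, SE 0.31, adjusted p = 0.0106, edgeR), and the troponin I gene tnni2a.4 was at 89.0, 54.7 and 34.9 CPM in Gr mutants, against 217, 222 and 177 CPM in wild-type fish (log2 fold change -1.83, SE 0.34, adjusted p = 0.031, edgeR).

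Of 50 genes of calcium handling 2 rose and 1 fell, which is 6% against 3.02% of all genes tested. Parvalbumin pvalb1, a calcium buffer that speeds relaxation, was at 20064, 35269 and 30235 CPM in exercised Gr mutants, against 3555, 7277 and 3615 CPM in exercised wild-type fish (log2 fold change 2.54, SE 0.38, adjusted p = 0.0184, edgeR). The lowest mutant was above the highest wild-type library. The ryanodine receptor binding protein gene fkbp1b was at 52.7, 74.5 and 120.4 CPM in Gr mutants, against 14.4, 21.0 and 21.2 CPM in wild-type fish (log2 fold change 2.099, SE 0.33, adjusted p = 0.0201, edgeR). The calcium pump of fast muscle, atp2a1, fell and was at 599.7, 449 and 239 CPM in Gr mutants, against 2406, 1371 and 1140.0 CPM in wild-type fish (log2 fold change -1.98, SE 0.42, adjusted p = 0.046, edgeR). The other 47 genes did not pass, and the list had a median of 0.21.

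Regulators of muscle growth held 2 rises. Myostatin b, mstnb, an inhibitor of muscle growth in mammals, was at 103, 135 and 70.0 CPM in exercised Gr mutants, against 24.5, 19.1 and 24.9 CPM in exercised wild-type fish (log2 fold change 2.12, SE 0.28, adjusted p = 0.0142, edgeR). Myogenin, myog, a transcription factor of differentiating muscle cells, was at 4.86, 9.07 and 12.04 CPM in Gr mutants, against 0.708, 1.36 and 1.13 CPM in wild-type fish (log2 fold change 2.98, SE 0.41, adjusted p = 0.0155, edgeR), which is low in all libraries. These were the only 2 of 28 genes of that list that passed (7.14%, against 3.02% of all genes tested), with a median of 0.17. The satellite cell gene pax7a was at 1.81, 0.825 and 2.21 CPM in Gr mutants, against 2.27, 1.17 and 1.88 CPM in wild-type fish, with overlapping groups. Of 22 genes of the growth hormone, IGF and insulin axis none passed, and igf1 was at 1.24, 0.989 and 1.38 CPM in Gr mutants, against 0.779, 0.778 and 0.901 CPM in wild-type fish (log2 fold change 0.52, SE 0.38, adjusted p = 0.502, edgeR). The insulin receptor substrate irs2b was at 22.8, 19.3 and 25.3 CPM in Gr mutants, against 88.1, 100.4 and 26.1 CPM in wild-type fish (log2 fold change -1.70, SE 0.44, adjusted p = 0.0763, edgeR). Only 1 of 31 genes of the mTOR and AMPK list passed (3.23%, against 3.02% of all genes tested). This was the S6 kinase gene rps6kb1a, at 3.63, 2.64 and 2.49 CPM in Gr mutants, against 11.5, 13.03 and 9.38 CPM in wild-type fish (log2 fold change -1.96, SE 0.25, adjusted p = 0.0119, edgeR). The cytokine-induced suppressor cish, a target of growth hormone signalling, rose and was at 23.7, 20.4 and 15.1 CPM in Gr mutants, against 3.04, 3.60 and 5.33 CPM in wild-type fish (log2 fold change 2.27, SE 0.28, adjusted p = 0.0115, edgeR).

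Genes of muscle breakdown showed no common direction. Of 42 genes of atrophy and ubiquitin ligases, 1 rose and 2 fell (7.14%, against 3.02% of all genes tested), with a median of -0.03. The MuRF paralog trim63b was at 115, 87.9 and 97.2 CPM in Gr mutants, against 187, 415 and 216 CPM in wild-type fish (log2 fold change -1.47, SE 0.31, adjusted p = 0.0466, edgeR), whereas trim63a was at 213, 191 and 125 CPM in Gr mutants, against 45.4, 121 and 237 CPM in wild-type fish, with overlapping groups (log2 fold change 0.36, SE 0.51, adjusted p = 0.755, edgeR). The related trim54 rose and was at 5.19, 15.7 and 14.3 CPM in Gr mutants, against 1.34, 2.24 and 0.826 CPM in wild-type fish (log2 fold change 2.96, SE 0.50, adjusted p = 0.0245, edgeR). Atrogin-1, fbxo32, was at 102, 231 and 33.8 CPM in Gr mutants, against 166, 302 and 361 CPM in wild-type fish (log2 fold change -1.21, SE 0.60, adjusted p = 0.32, edgeR), with a wide spread in both genotypes. Of 55 proteasome subunits and 44 autophagy genes tested, none passed, and the medians were -0.16 and -0.31. In the lysosome list 4 of 58 fell, including the cathepsins ctsla (-1.37), ctsz (-1.41) and ctsf (-1.07), with a median of -0.41. That is 6.9% of the list, against 3.02% of all genes tested. Of 22 FoxO and Akt genes none passed, with foxo1a at 13.9, 20.1 and 25.3 CPM in Gr mutants, against 65.1, 50.9 and 28.9 CPM in wild-type fish (log2 fold change -1.33, SE 0.35, adjusted p = 0.0763, edgeR).

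Extracellular matrix genes mostly had log2 fold changes above 0, and few of them passed. Of 13 fibrillar collagens 1 passed, col1a1a at 2296, 2188 and 3218 CPM in Gr mutants, against 979.7, 721 and 1116 CPM in wild-type fish (log2 fold change 1.41, SE 0.28, adjusted p = 0.0402, edgeR), 12 had a log2 fold change above 0 and the median was 0.84. Of 78 matrix proteoglycans, glycoproteins and remodelling enzymes 5 rose and none fell, with a median of 0.36. The shares past the threshold were 7.69% of the fibrillar collagens and 6.41% of these 78 genes, against 3.02% of all genes tested. Fibronectin, fn1a, was at 123, 107 and 125 CPM in Gr mutants, against 46.4, 29.9 and 42.9 CPM in wild-type fish (log2 fold change 1.53, SE 0.24, adjusted p = 0.02, edgeR). The lysyl oxidase-like gene loxl3a, a crosslinker of collagen, was at 6.27, 6.60 and 7.75 CPM in Gr mutants, against 1.13, 0.681 and 1.28 CPM in wild-type fish (log2 fold change 2.66, SE 0.31, adjusted p = 0.0103, edgeR), and mfap2, a microfibril protein gene, was at 14.3, 8.90 and 15.8 CPM in Gr mutants, against 4.53, 3.21 and 3.98 CPM in wild-type fish (log2 fold change 1.69, SE 0.28, adjusted p = 0.0228, edgeR). The replicates of a genotype lay close together in these genes. Lumican, lum, a collagen-binding proteoglycan, was at 58.5, 70.4 and 55.8 CPM in Gr mutants, against 28.9, 17.99 and 30.02 CPM in wild-type fish (log2 fold change 1.22, SE 0.26, adjusted p = 0.0456, edgeR). The growth factor tgfb3 was at 31.99, 29.0 and 37.0 CPM in Gr mutants, against 15.9, 9.92 and 14.03 CPM in wild-type fish (log2 fold change 1.25, SE 0.24, adjusted p = 0.0355, edgeR). Markers of fibroblasts and tendon share members with the matrix lists, col1a1a and lum among them, so their direction is no separate observation. The 33 markers summed to 5782, 5048 and 6900 CPM in Gr mutants and to 3071, 2415 and 3239 CPM in wild-type fish. Of the 27 tested, 24 were above 0 and 3 rose (col1a1a, lum and fap). The part of these cells in the matrix result was not tested. The marker pdgfra was at 24.8, 24.4 and 20.9 CPM in Gr mutants, against 8.99, 7.003 and 17.9 CPM in wild-type fish and dcn at 272, 190.3 and 246 CPM in Gr mutants, against 130.5, 119 and 136 CPM in wild-type fish, and neither passed. Without Gr mutant replicate 2 or 3 none of the fibrillar collagens or of the other matrix genes passed. The medians in these fits were 0.92 and 0.75 for the fibrillar collagens and 0.44 and 0.35 for the others. Over the 6 omissions of a library, col1a1a, lum and tgfb3 passed in 0, fn1a and mfap2 in 2, and loxl3a in 4.

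**Figure D4:**
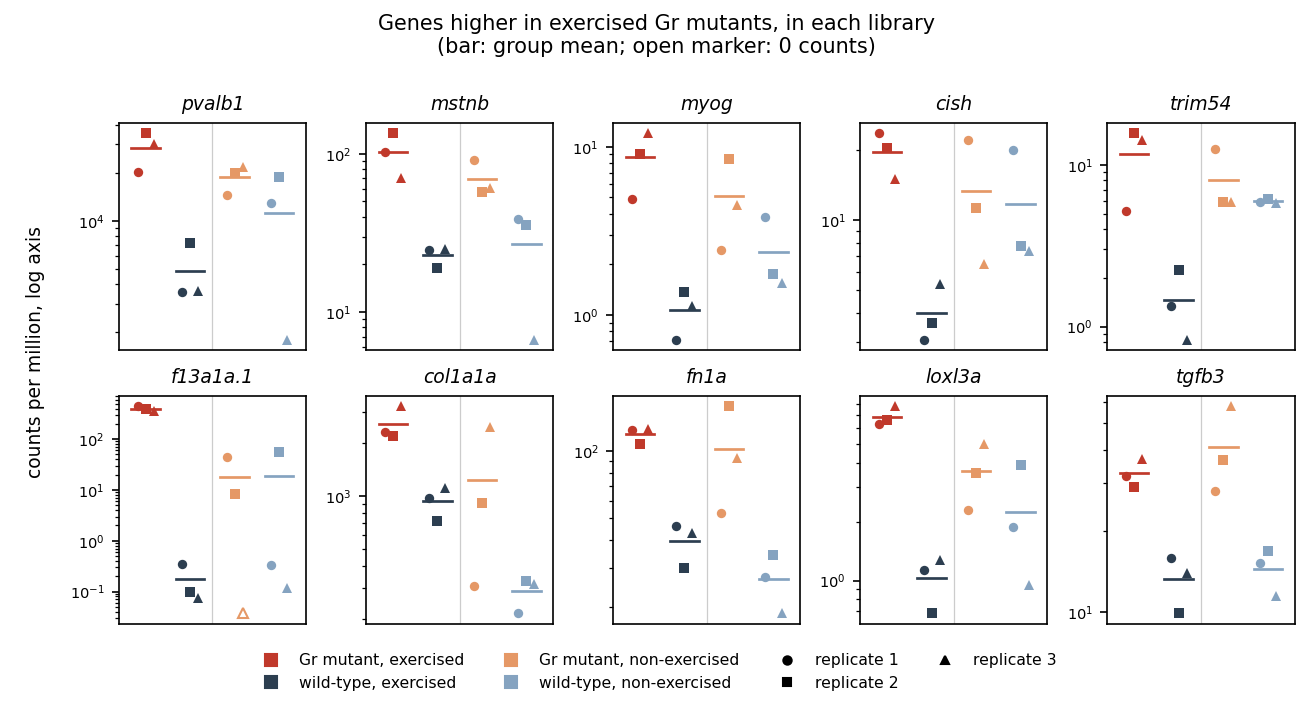
Expression in CPM (log axes) of 10 genes that rose in exercised Gr mutants, in the 12 libraries, with Gr mutants left of wild-type fish, exercised fish left of the grey line and non-exercised fish right of it; bars are group means and an open marker is a library with 0 counts. All exercised mutants lie above all exercised wild-type fish in every panel, an order fixed by the choice, since none of the 426 genes past the threshold overlapped. Non-exercised mutants and wild-type fish overlap in 7 panels, the exceptions being mstnb, fn1a and tgfb3. Over the 14106 genes tested, non-exercised mutants lay all above wild-type fish in 1511 and all below in 1615.

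Of 38 cytokine and chemokine genes 1 rose, tgfb3, and 2 fell, with a median of -0.28. The share past the threshold was 7.89% in this list, 3.23% in interferon and antigen presentation genes and 5.41% in chaperones, against 3.02% of all genes tested. The tumour necrosis factor receptor tnfrsf1b was at 4.205, 4.29 and 3.05 CPM in Gr mutants, against 7.79, 22.8 and 15.7 CPM in wild-type fish (log2 fold change -2.02, SE 0.38, adjusted p = 0.0316, edgeR), and the chemokine ccl38.6 was at 0.742, 1.15 and 0.830 CPM in Gr mutants, against 3.04, 2.43 and 3.38 CPM in wild-type fish (log2 fold change -1.77, SE 0.35, adjusted p = 0.0402, edgeR). The inhibitor nfkbiab, a feedback gene of NF-kB, was at 40.1, 38.8 and 34.6 CPM in Gr mutants, against 71.5, 129 and 62.3 CPM in wild-type fish (log2 fold change -1.24, SE 0.28, adjusted p = 0.0552, edgeR). Of 31 interferon and antigen presentation genes 1 fell, the MHC class II gene mhc2dab, at 0.989, 2.47 and 0.969 CPM in Gr mutants, against 83.4, 13.9 and 36.1 CPM in wild-type fish (log2 fold change -5.04, SE 0.74, adjusted p = 0.0179, edgeR). The myeloid markers lcp1 and mpeg1.1 overlapped, and the 48 myeloid genes summed to between 501.2 and 912.4 CPM in Gr mutants and to between 349.5 and 700.8 CPM in wild-type fish. Among 74 chaperone genes 4 fell, hspb6, the mitochondrial hspa9 (-1.34), hspa4a (-1.24) and dnajb6b (-1.43), with a median of -0.17. In 37 cell cycle genes and 59 genes of ribosome biogenesis none passed, with medians of 0.65 and 0.40.

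The largest differences of all were in genes that were nearly on or off. The coagulation factor XIII gene f13a1a.1 (ENSDARG00000045453) was at 442, 391 and 357 CPM in exercised Gr mutants, against 0.354, 0.0973 and 0.0751 CPM in exercised wild-type fish, where the wild-type values stand for 5, 1 and 1 counts (edgeR, 9.8e-05 as adjusted p). Its paralog F13A1 (3 of 3) had 425 counts over the 3 Gr mutants and 0 over the 3 wild-type fish. It would be 210.3-fold higher if the wild-type group had held 3 counts. The 95% lower limit of the ratio of these summed counts was 170.3, which leaves out the spread between libraries. The kappa glutathione transferase GSTK1 (3 of 4) was at 0.824, 0.495 and 0.138 CPM in Gr mutants, against 367, 1067 and 667 CPM in wild-type fish (edgeR, 0.000641 as adjusted p), whereas GSTK1 (1 of 4) rose and was at 23.6, 47.7 and 70.7 CPM in Gr mutants, against 4.96, 13.3 and 7.05 CPM in wild-type fish (log2 fold change 2.47, SE 0.47, adjusted p = 0.0339, edgeR). These gene models carry one name, and whether reads were divided correctly among them was not tested. The fatty acid amide hydrolase gene FAAH was at 0.742, 1.15 and 0.415 CPM in Gr mutants, against 46.3, 67.3 and 55.4 CPM in wild-type fish (log2 fold change -6.23, SE 0.34, adjusted p = 0.000271, edgeR). In non-exercised fish these genes varied widely within a genotype: f13a1a.1 was at 44.7, 8.15 and 0 CPM in Gr mutants and 0.341, 56.2 and 0.119 CPM in wild-type fish, GSTK1 (3 of 4) at 0.944, 0.231 and 398 CPM in Gr mutants and 27.4, 20.3 and 1071 CPM in wild-type fish, and FAAH at 1.47, 1.56 and 29.0 CPM in Gr mutants and 1.87, 1.54 and 108 CPM in wild-type fish. The genotypes overlapped there in all 3 genes.

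The remaining genes among the 10 largest rises and 10 largest falls with a mean of at least 100 counts were of several kinds. The desumoylating enzyme gene desi1a was at 0.907, 0.165 and 0.138 CPM in Gr mutants, against 19.5, 29.9 and 3.60 CPM in wild-type fish (log2 fold change -5.18, SE 0.90, adjusted p = 0.0267, edgeR), and the phosphate transporter gene slc20a1a was at 1.90, 0.825 and 0.830 CPM in Gr mutants, against 20.5, 54.5 and 3.45 CPM in wild-type fish (log2 fold change -4.37, SE 0.93, adjusted p = 0.0466, edgeR). The mutant levels of both genes rest on few counts, so the sizes of these folds are uncertain. The gene models without a named function, zgc:92880 and si:ch211-137i24.12, had log2 fold changes of -5.11 and -4.97. Of the rises, the alcohol dehydrogenase adh8a was at 62.9, 77.5 and 68.0 CPM in Gr mutants, against 18.3, 15.1 and 16.7 CPM in wild-type fish (log2 fold change 2.02, SE 0.20, adjusted p = 0.00693, edgeR), and the lipid enzyme gene etnppl was at 20.1, 26.4 and 21.7 CPM in Gr mutants, against 5.31, 3.21 and 7.66 CPM in wild-type fish (log2 fold change 2.02, SE 0.32, adjusted p = 0.0201, edgeR). The chitinase gene chia.4 and the gene model C10orf71 had log2 fold changes of 1.998 and 1.998 (adjusted p = 0.0172 and 0.0201, edgeR).

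Whether the genotype difference was the same without exercise was examined in the non-exercised fish, which share no library with the exercised ones. There 35 of 15011 genes passed the threshold in edgeR's test (0.233%), 28 lower and 7 higher in Gr mutants. Over the omission of each library the number ran from 0 to 544, the latter without non-exercised Gr mutant replicate 3. Myeloid genes summed to 2584, 2400 and 536 CPM in non-exercised Gr mutants, against 506.1, 380.9 and 514.5 CPM in non-exercised wild-type fish, and their part in these calls was not tested. A total of 23 genes passed in both comparisons, all in the same direction, which is 5.4% of the 426 and 65.7% of the 35. Of the 426 genes, 416 were also tested in non-exercised fish, and 394 of these (94.7%) had the same sign there, against 65.7% of all 13837 genes tested in both. Pearson's r of the log2 fold changes was 0.712 across the 416 genes and 0.451 across all 13837, as a description across genes that are not independent. The absolute log2 fold change was larger in exercised fish for 359 of the 416, genes that were chosen by their size in exercised fish.

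Glucocorticoid responsive genes had a median of -1.27 in exercised and -0.96 in non-exercised fish. Of the 34 genes of this list, 2 were lower past the threshold in non-exercised fish and 0 were higher. The lower genes were fkbp5, with -8.95 in exercised and -8.14 in non-exercised fish, and pdk4, with -2.396 and -3.01. The other genes of the list that fell in exercised fish did not pass in non-exercised fish. Outside this list, gadd45ba had -3.46 and -3.01 and nr1d2a had -4.25 and -3.39, and both passed in both comparisons. All of these genes were picked from the 23 past the threshold in both. In nuclear-encoded respiratory chain genes the median was -0.97 in exercised and -0.36 in non-exercised fish, where 24 of 123 genes had all mutants below all wild-type fish (11.6% of all genes tested in both), against 97 in exercised fish. In genes of the mitochondrial genome it was -1.77 in exercised and -0.86 in non-exercised fish, and in mitochondrial ribosomal proteins -0.73 and -0.14. The mitochondrial genome genes summed to 27860, 29830 and 63640 CPM in non-exercised Gr mutants, against 77600, 88910 and 54550 CPM in wild-type fish. Complex I summed to 2540, 1803 and 3726 CPM in these mutants, against 3433, 3705 and 3962 CPM in these wild-type fish. Gr mutant replicates 1 and 2 lay below all wild-type libraries in both sums and replicate 3 did not, so the overlap rested on that library. The genotype differences with and without exercise were compared gene by gene over all 12 libraries, by testing the interaction of genotype and exercise. No gene of 16056 passed (0%), with 1347 genes at an unadjusted p under 0.05. The lowest adjusted p was 0.49 (edgeR). DESeq2 called 32 genes. By edgeR's test no gene is therefore shown to differ in its genotype effect between exercised and non-exercised fish, and the medians of the lists were not compared by a test.

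**Figure D5:**
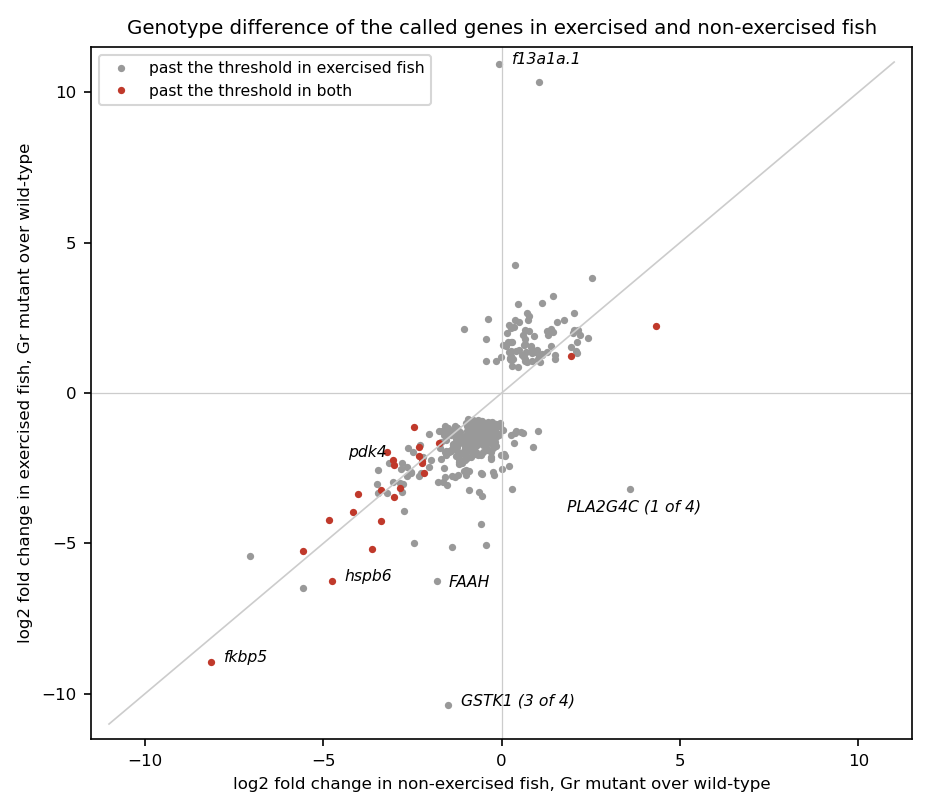
Log2 fold change of Gr mutants over wild-type fish in exercised fish (vertical axis) against that in non-exercised fish (horizontal axis) for the 416 genes past the threshold in exercised fish and tested in both, with the 23 genes past both thresholds in red and the line of equal values in grey. Most points lie where both values have the same sign (394 of 416), and f13a1a.1, GSTK1 (3 of 4) and PLA2G4C (1 of 4) lie far from the line.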

How the data were processed

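Libraries had been prepared from total RNA of white muscle with a kit that does not mark strand, and were sequenced as 50-nt single reads. The authors aligned reads with TopHat 2.0.5 to GRCz10, removed secondary alignments with SAMtools 0.1.18 and deposited HTSeq 0.5.3p9 counts per gene. Reads of overlapping genes and of near-identical copies may be divided wrongly. The deposited tables also hold fold changes and p-values of the authors' own comparisons, which were not used. Counts were scaled by TMM and fitted with edgeR 4.0.16 (R 4.3.3) by quasi-likelihood, with exercised Gr mutants and exercised wild-type fish alone, genes that reached 10 counts in 3 or more of these libraries, and Benjamini-Hochberg adjustment at 0.05. The SE is the absolute log2 fold change divided by the square root of F. The fit was tested on simulated data, where it recovered 88% of 100 genes changed 4-fold and 7% of 100 changed 2-fold. It also called 6 unchanged genes among the 13698 tested. The changed genes were drawn from genes with higher mean counts than the filter requires, and genes were simulated independently. Alternatives were DESeq2 1.42.0, RLE scaling, no filter, all 12 libraries, a replicate block, thinning, and leaving out each library. Leaving out the 13 protein-coding genes of the mitochondrial genome, and leaving out genes with over 80% of their reads in 1 library (8 of those tested, 0 of the calls), were added after seeing the data. The members and gene lists were chosen with earlier results of these data known. Genes were named if they were nr3c1, if they were among the 10 largest rises or falls past the threshold with a mean of at least 100 counts, if they were among the up to 4 members of a list with the smallest p, or if they were key members of a list. Other genes named were chosen after their values were seen: F13A1 (3 of 3), SOCS3 (3 of 3), PLA2G4C (1 of 4), gnai2b, cebpd, ucp3, pfkfb4b, pfkmb, gapdh, slc16a3, phkb, phkg1b, sdha, sdhdb, uqcc1, atpif1b, ndufa4l, the carnitine palmitoyltransferases, the fat synthesis genes, got2a, got2b, idh3a, mdh1ab, and tfb2m, mfn2, pink1 and the other mitochondrial genes of no list. Members of a list without a call are given by counts.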

Additional observations from a re-analysis of the deposited data

Results flagged for a closer look

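In myod1 all mutants lay above all wild-type fish with exercise and below them without exercise, and in atp6v1ba the order was the reverse. Both were flagged among the named genes for this opposite order. A low unadjusted p of the interaction was favoured by that choice, and it is no test of opposite direction. Neither passed the adjusted threshold. Outside the named genes, gnai2b showed the order of atp6v1ba. Its log2 fold changes were -1.26 with exercise and 0.41 without it (interaction -1.63, unadjusted p = 9.6e-05, edgeR). For myod1, a transcription factor of muscle identity, the interaction was 1.26 on the log2 scale (SE 0.391, unadjusted p = 0.00717, adjusted p = 0.49, edgeR). Its level was 41.4, 40.6 and 61.7 CPM in Gr mutants, against 36.5, 39.0 and 28.1 CPM in wild-type fish with exercise, and 20.9, 39.6 and 29.5 CPM in Gr mutants and 53.4, 41.0 and 60.5 CPM in wild-type fish without exercise. For atp6v1ba, a subunit of the vacuolar ATPase, the interaction was -2.22 on the log2 scale (SE 0.468, unadjusted p = 0.000446, adjusted p = 0.49, edgeR). Its level was 5.94, 4.12 and 5.40 CPM in Gr mutants, against 9.06, 11.9 and 15.2 CPM in wild-type fish with exercise, and 13.7, 25.5 and 9.89 CPM in Gr mutants and 7.24, 8.12 and 9.20 CPM in wild-type fish without exercise.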

How the results depend on the processing

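No gene past the threshold changed direction, which was all but fixed by the lack of overlap between the genotypes in these genes. The number of genes past the threshold in exercised fish was 426 (92 higher, 334 lower) and became 944 (296 higher, 648 lower) with DESeq2, 267 (65 higher, 202 lower) with all 12 libraries in the fit and 1118 (333 higher, 785 lower) at an adjusted p under 0.1. It was 368 with RLE scaling, 505 without the filter, 453 after thinning and 409 without the 13 protein-coding genes of the mitochondrial genome. DESeq2 called 410 of the 426. Over the omission of each library the number ranged from 6 to 508, with 0 to 114 higher and 6 to 394 lower. Replicate numbers did not pair the libraries, with correlations of same-numbered deviations of -0.0452, -0.0802 and -0.113, and a replicate block gave 223 calls (54 higher, 169 lower). In non-exercised fish the 35 calls became 726 with DESeq2, 126 without the filter and 0 with the replicate block, and ranged from 0 to 544 over the omissions. The 0 calls of the interaction became 32 with DESeq2. The causes were not tested. Of 1194 values of named genes with a library left out, 846 kept their side of the threshold, 332 lost it and 16 gained it, and 29, of genes not past the threshold, changed sign. Of 1443 values under the other alternatives, 1306 kept their side, 88 lost it and 49 gained it. Of the list medians, 26 of 354 with a library left out and 7 of 412 under other alternatives changed sign. Among medians given above these were core clock genes (0.06 without Gr mutant replicate 2, 0.02 without wild-type replicate 2), cytokines (0.0013 without wild-type replicate 3), atrophy genes (0.0098 without Gr mutant replicate 1, 0.14 without wild-type replicate 2, 0.014 with the block) and proteasome subunits (0.092 without Gr mutant replicate 3). A fold of 2 was rarely recovered on simulated data, so in genes of such counts smaller differences would seldom be detected. Genes with lower counts and shifts shared by many genes were not simulated.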
